A study of Mus musculus with 6 samples.

Results

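The integrated stress response is described here through 10 genes of its ATF4-CHOP arm, Atf4, Ddit3, Atf3, Cebpb, Ppp1r15a, Trib3, Asns, Chac1, Sesn2 and Ddit4, chosen by symbol from a table of 12656 genes. All 10 were found in the table and all 10 passed the filter on low values. The groups were 4T1 cells given LP-184 for 48 h (3 libraries) and 4T1 cells given DMSO (3 libraries), for which the labels give no time. 4T1 is a mouse cell line that is widely used as a triple-negative breast cancer model, LP-184 is a chemotherapeutic compound that damages DNA, and DMSO is the solvent of the control cells. Every library comes from this single line, grown in culture, and polyadenylated RNA was sequenced. The labels do not say whether the 3 libraries of a group came from separate cultures, so the p-values below speak to the variation among these libraries alone, and that variation may be technical.

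In the integrated stress response, a small set of kinases that sense different stresses phosphorylates the translation initiation factor eIF2alpha. General protein synthesis falls, while the mRNA of the transcription factor ATF4 is translated more efficiently through upstream open reading frames in its leader. ATF4 and its target CHOP, encoded by Ddit3, then switch on genes of amino acid supply, redox balance, feedback and, under lasting stress, cell death. Because ATF4 is controlled at translation, the mRNA values below do not measure ATF4 protein, and phosphorylation of eIF2alpha was not measured.

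The 10 genes did not change alike with LP-184. Ddit3 rose 12.5-fold, Atf3 11.5-fold, Ppp1r15a 6.64-fold, Trib3 4.20-fold and Sesn2 3.66-fold, while Asns, Atf4 and Chac1 rose 1.52-fold, 1.47-fold and 1.35-fold. Ddit4 and Cebpb fell, by 0.34 and 0.15 on the log2 scale. By limma on the log2 CPM values (CPM is the read count scaled to the size of the library) with Benjamini-Hochberg adjustment over 11931 genes, all 10 genes passed an adjusted p of 0.05, where 78.3% of all tested genes did so. Of the 10, 8 were higher, against 38.3% of tested genes, and 2 were lower, against 40.0%. At 2-fold or more, 5 of the 10 were higher, against 8.08% of tested genes, and 0 were lower, against 12.6%. The LP-184 and DMSO libraries did not overlap for any of the 10 genes, a state shared by 79.1% of tested genes. The median log2 fold change was 1.24 over the 10 genes and -0.01 over all tested genes. Because the 10 genes were chosen with earlier results of these data known, these counts and medians describe the set and do not test it.

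The reads behind the table numbered 18952393 to 22471753 per LP-184 library and 18864368 to 21585323 per DMSO library. The epithelial markers Krt8, Krt18, Epcam and Cdh1 were all present in this mammary carcinoma line, with a summed level of 2312 to 2327 CPM in LP-184 libraries and 2570 to 2596 CPM in DMSO libraries. They did not move together: the keratin genes Krt8 and Krt18 fell by 0.47 and 0.34 on the log2 scale, and Epcam and Cdh1 rose by 0.36 and 0.38 (limma). Of 14 markers of leukocytes, fibroblasts and endothelial cells, 4 were among the genes of the table. The 3 of these that mark leukocytes (Cd68, Lyz2 and Cd79a) summed to 29.8 to 35.9 CPM with LP-184 and 11.3 to 12.3 CPM with DMSO, most of it Cd68, a lysosomal gene (31.3 CPM with LP-184 and 10.2 CPM with DMSO), and Lyz2 was at 0 with LP-184. The fibroblast marker Pdgfra lay at 8.12 to 10.3 CPM with LP-184 and 6.37 to 7.62 CPM with DMSO. Their part in the results was not tested. In RNA from whole cultures, fewer cells that express a gene and less RNA per cell cannot be told apart.

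**Figure D1:**
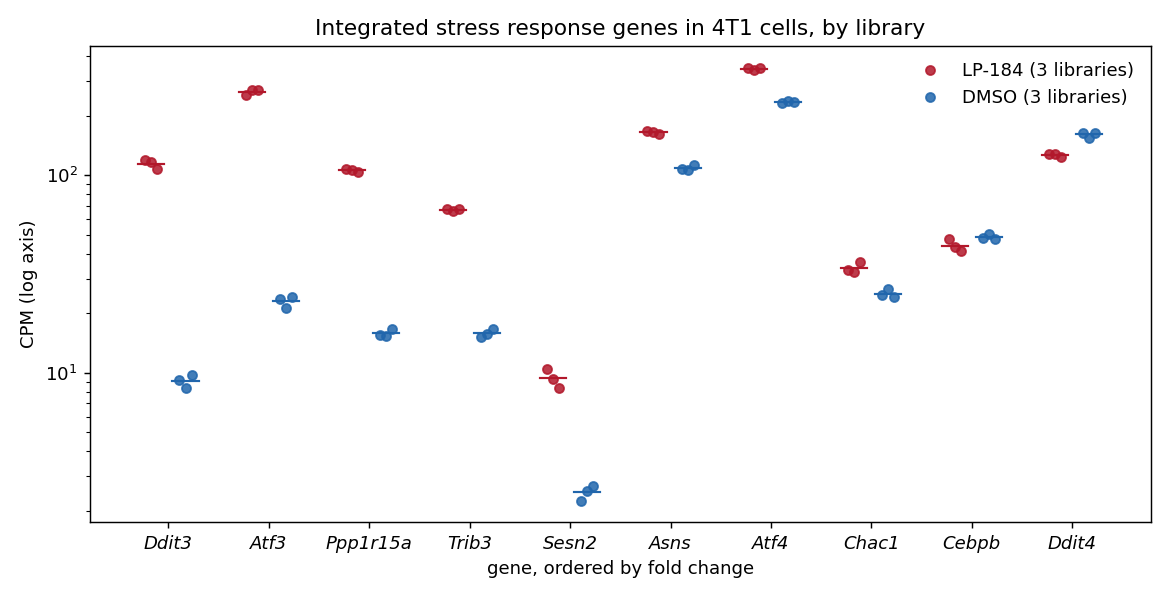
Level of each integrated stress response gene in each library, in CPM on a log axis, with LP-184 libraries in red to the left of DMSO libraries in blue and a line at each group mean. Ddit3 and Atf3 show the widest gaps between groups, with means of 114 and 265 CPM in LP-184 libraries against 9.07 and 23.0 CPM in DMSO libraries, and for Ddit4 and Cebpb the LP-184 libraries lie lower.

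Among the transcription factors, Atf4, the master regulator of the response (chr15:80255184-80257541 in GRCm38, forward strand), had 347, 343 and 351 CPM in LP-184 libraries, against 233, 238 and 236 CPM in DMSO libraries. Every LP-184 library lay above every DMSO library, and the spread within a group was small beside the gap between groups. Its log2 fold change was 0.56 ± 0.03 (SE, n = 3 each; limma adjusted p = 1.64e-20). Ddit3 encodes CHOP, a partner and target of ATF4 that is known for promoting cell death under lasting stress (chr10:127290774-127296288, forward strand). It had 119, 116 and 107 CPM in LP-184 libraries, against 9.17, 8.34 and 9.69 CPM in DMSO libraries, counted from 7187 and 531 reads. The LP-184 libraries were all more than 10 times as high as the DMSO libraries, and the log2 fold change was 3.64 ± 0.07 (SE, n = 3 each; limma adjusted p = 1.72e-31).

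Atf3, a stress-induced factor of the same leucine zipper family (chr1:191170296-191218039, reverse strand), had 255, 270 and 270 CPM in LP-184 libraries, against 23.7, 21.2 and 24.2 CPM in DMSO libraries. Its log2 fold change of 3.52 ± 0.05 (SE, n = 3 each) ranked 34th among the 11931 tested genes, and that of Ddit3 ranked 28th. Atf3 and Ddit3 were thus at the 99.7th and 99.8th percentile of all fold changes, while Atf4 was at the 79.7th. Cebpb, a C/EBP factor that can pair with ATF4 (chr2:167688915-167690418, forward strand), went the other way. It had 47.3, 43.2 and 41.6 CPM in LP-184 libraries, against 48.3, 50.5 and 47.7 CPM in DMSO libraries. The groups did not overlap, but by less than 1 CPM, and the log2 fold change was -0.15 ± 0.06 (SE, n = 3 each; limma adjusted p = 0.0139). The call of Cebpb was lost without LP-184 replicate 3 (-0.11, adjusted p = 0.0966) and without DMSO replicate 2 (-0.13, adjusted p = 0.0696). It was also lost with median centring of the libraries (-0.06, limma adjusted p = 0.293), under quantile normalization (-0.11, adjusted p = 0.0673) and in a model with no variance trend (-0.15, adjusted p = 0.0607), and its adjusted p ranged from 2.61e-05 to 0.293 over 17 alternatives.

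The feedback genes rose strongly. Ppp1r15a encodes GADD34, the inducible subunit that brings protein phosphatase 1 to eIF2alpha and so ends the response (chr7:45522916-45526268, reverse strand). It had 107, 107 and 103 CPM in LP-184 libraries, against 15.6, 15.3 and 16.8 CPM in DMSO libraries. The groups were far apart, with a log2 fold change of 2.73 ± 0.06 (SE, n = 3 each; limma adjusted p = 4.15e-30). Trib3, a pseudokinase that is induced by ATF4 and CHOP and restrains both (chr2:152337422-152344032, reverse strand), had 67.8, 66.0 and 67.2 CPM in LP-184 libraries, against 15.2, 15.8 and 16.7 CPM in DMSO libraries. Its log2 fold change was 2.07 ± 0.06 (SE, n = 3 each), at the 98.6th percentile of all tested genes.

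The metabolic members Asns and Chac1 rose by less than 2-fold. Asns, asparagine synthetase and a standard reporter of ATF4 activity (chr6:7675169-7693254, reverse strand), had 167, 166 and 161 CPM in LP-184 libraries, against 108, 106 and 113 CPM in DMSO libraries. Its log2 fold change of 0.60 ± 0.03 (SE, n = 3 each) was close to that of Atf4: the log2 ratio of Asns to Atf4 was -1.07 ± 0.04 with LP-184 and -1.12 ± 0.05 with DMSO (SD, n = 3 each), a difference of 0.04 ± 0.04 (SE) whose groups overlapped (exact permutation test, two-sided, p = 0.3). With 3 against 3 libraries this test cannot go below 0.1, so it cannot decide whether Asns and Atf4 changed alike. Chac1, which degrades glutathione (chr2:119351229-119354381, forward strand), had 33.3, 32.3 and 36.3 CPM in LP-184 libraries, against 24.7, 26.7 and 24.1 CPM in DMSO libraries. The gap between the groups exceeded the spread within them, with a log2 fold change of 0.43 ± 0.07 (SE, n = 3 each; limma adjusted p = 9.26e-07).

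Sesn2 and Ddit4, which both restrain the growth kinase complex mTORC1, moved in opposite directions. Sesn2 encodes a sestrin, a stress-induced leucine sensor (chr4:132492032-132510501, reverse strand), and had 10.4, 9.25 and 8.38 CPM in LP-184 libraries, against 2.25, 2.52 and 2.68 CPM in DMSO libraries. It was the lowest member in both groups, with 591 reads over the LP-184 libraries and 146 over the DMSO libraries, and its log2 fold change of 1.87 carried the largest standard error of the 10 (0.17, n = 3 each). Ddit4 encodes REDD1, a target of ATF4 and of other stress pathways such as hypoxia (chr10:59949669-59951834, reverse strand). It had 128, 129 and 123 CPM in LP-184 libraries, against 163, 155 and 164 CPM in DMSO libraries. Every LP-184 library lay below every DMSO library, and the log2 fold change was -0.34 ± 0.03 (SE, n = 3 each; limma adjusted p = 2.08e-11).

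**Figure D2:**
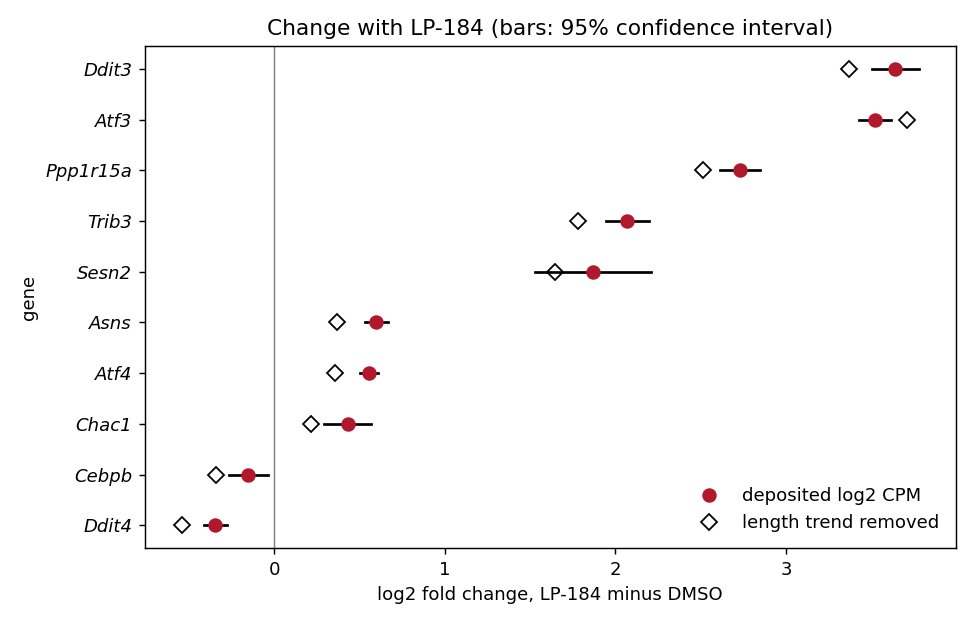
Log2 fold change (LP-184 minus DMSO) of each integrated stress response gene, with red points and 95% confidence intervals for the deposited log2 CPM values and open diamonds after subtraction of the trend against gene length. 5 genes lie above 1 (2-fold), Asns, Atf4 and Chac1 lie between 0.43 and 0.60, and Cebpb and Ddit4 lie below 0.

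Per kb of annotated exon, the order of the members by level differed between the groups. With LP-184, Atf4 stood first at 147 ± 1.69 CPM per kb (SD, n = 3), followed by Atf3 (123 ± 3.84), Ddit4 (72.1 ± 1.72), Ddit3 (66.6 ± 3.70) and Asns (60.2 ± 1.27). Ppp1r15a (36.1), Trib3 (31.5), Cebpb (29.3), Chac1 (20.7) and Sesn2 (2.69) came after them, and Trib3 and Cebpb were the sole neighbours whose LP-184 libraries overlapped. With DMSO, Atf4 also stood first at 99.99 ± 0.943 CPM per kb (SD, n = 3), followed by Ddit4 (91.6 ± 2.93), Asns (39.7 ± 1.28), Cebpb (32.5 ± 0.996) and Chac1 (15.4 ± 0.812). Atf3 (10.7), Trib3 (7.47), Ppp1r15a (5.41), Ddit3 (5.29) and Sesn2 (0.714) followed, and Ppp1r15a and Ddit3 overlapped. Atf3 was therefore second of 10 with LP-184 and sixth with DMSO, and Ddit3 was the fourth with LP-184 and the ninth with DMSO. Exon lengths were those of all annotated transcripts together, so the order depends on that annotation. The 10 genes together took 1268 to 1283 CPM in LP-184 libraries and 639 to 655 CPM in DMSO libraries.

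The log2 ratio of Ddit3 to Atf4, taken within each library, was -1.60 ± 0.09 with LP-184 and -4.69 ± 0.12 with DMSO (SD, n = 3 each), a difference of 3.08 ± 0.09 (SE). The groups did not overlap (exact permutation test, two-sided, p = 0.1, the smallest that 3 against 3 libraries allow; adjusted p = 0.122 over 11 such ratios). The authors' deposited table gives log2 fold changes of the same sign for all 10 genes, and the largest distance from the values above is 0.05, for Sesn2.

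The stretches around short motifs are shown because the members differ in whether their promoter windows hold letters that ATF factors are known to bind. In the RefSeq promoter windows of GRCm38.p6 (250 bases before to 50 after the annotated start, 10 of 10 genes matched), both strands were searched for TGATGNAA, the core of the C/EBP-ATF response element, for TGACGTCA, the cAMP response element, and for the ER stress response element (CCAAT, any 9 bases, then CCACG). The first was found in 4 of the 10 windows (Atf3, Trib3, Chac1 and Asns), against 2.51% of 8854 tested genes with a window and 3.97% of all 32851 windows. The second was found in Ppp1r15a alone of the 10, against 3.80% of tested genes and 1.79% of all windows, and the third in 0 of the 10, against 0.181% of tested genes and 0.119% of all windows. No window of the 10 held more than 1 match, so none overlapped. The stretches are given along the strand of the gene, with the match in capitals, which reads as the reverse complement of the motif in Atf3, Trib3 and Chac1. They cover chr1:191183400-191183479 (reverse strand), chr2:152344031-152344082 (reverse), chr2:119351013-119351092 (forward), chr6:7693189-7693268 (reverse) and chr7:45526239-45526316 (reverse), in that order.
Atf3: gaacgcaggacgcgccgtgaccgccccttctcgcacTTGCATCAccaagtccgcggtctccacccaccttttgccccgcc
Trib3: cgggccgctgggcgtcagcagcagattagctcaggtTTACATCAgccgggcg
Chac1: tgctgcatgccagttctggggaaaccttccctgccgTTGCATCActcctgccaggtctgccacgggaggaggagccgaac
Asns: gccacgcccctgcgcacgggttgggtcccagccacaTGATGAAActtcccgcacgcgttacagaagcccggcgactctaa
Ppp1r15a: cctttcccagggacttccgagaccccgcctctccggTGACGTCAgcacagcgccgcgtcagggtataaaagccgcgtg

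The matches begin 110 bases before the start in Atf3, 193 before it in Chac1, 23 before it in Asns and 12 before it in Ppp1r15a, and at base 15 after the start in Trib3. The 4 genes with a TGATGNAA match had log2 fold changes of 3.52 (Atf3), 2.07 (Trib3), 0.60 (Asns) and 0.43 (Chac1), so they include members with large and with small changes. Ddit3 and Sesn2, which rose by 2-fold or more, held no match in these windows, and neither did Atf4, Ddit4 and Cebpb. A match describes the letters of the window and not binding, and the window leaves out sites farther away. The members were chosen as genes of the ATF4-CHOP arm, so the counts of windows with a match describe the set and do not test it.

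Genes closely related to the members showed smaller shifts on the whole: the median log2 fold change of the 9 tested was 0.16. Of these, 7 were higher and 2 lower, against 38.3% and 40.0% of all tested genes. Subtracting the length trend put their median at -0.0035 and turned the direction of 3 of the 9. Ppp1r15b, the constitutive counterpart of Ppp1r15a, rose by 0.15 ± 0.03 (SE, n = 3 each), though it was at -0.15 after subtraction of the length trend. The log2 ratio of Ppp1r15a to Ppp1r15b was -0.67 ± 0.07 with LP-184 and -3.25 ± 0.08 with DMSO (SD, n = 3 each). Of the other pseudokinases of the Trib3 family, Trib2 fell by 1.13 ± 0.12 on the log2 scale. Trib1 was at 0.12 ± 0.05 with overlapping groups, and its call was lost without LP-184 replicate 2 or 3 and without DMSO replicate 1 or 2 (limma adjusted p of 0.0529 to 0.219), and its direction turned after subtraction of the length trend (-0.19). The log2 ratio of Trib3 to Trib2 was higher with LP-184 by 3.20 ± 0.10 (SE), that of Sesn2 to Sesn1 by 1.37 ± 0.05 and that of Sesn2 to Sesn3 by 1.71 ± 0.18 (SE, n = 3 each). For these 4 ratios the groups did not overlap (exact permutation tests, two-sided, p = 0.1 each, adjusted p = 0.122 over 11). Chac1 and Chac2, both glutathione-degrading enzymes, showed no such separation, with a difference of their log2 ratio of 0.13 ± 0.08 (SE, n = 3 each; exact permutation test, two-sided, p = 0.2). With 3 against 3 libraries this test cannot go below 0.1. All these ratios were taken before subtraction of the length trend. Sesn1 spans 98.5 kb, and that step put it at 1.37 and Sesn3 at 0.495, against 1.65 for Sesn2. The gap between Sesn2 and Sesn1 was thus smaller after it.

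Among the relatives of Cebpb and Atf4, Cebpd rose where Cebpb fell, and Atf5 rose more than Atf4. Cebpd, another C/EBP factor, rose by 1.18 ± 0.10 on the log2 scale (SE, n = 3 each), and the log2 ratio of Cebpb to Cebpd was 1.04 ± 0.10 with LP-184 and 2.38 ± 0.22 with DMSO (SD, n = 3 each). Atf5, a factor that is also translated preferentially when eIF2alpha is phosphorylated, rose by 1.39 ± 0.07, to 50.3 CPM with LP-184 against 19.1 CPM with DMSO. Other ATF, CREB and C/EBP factor genes were divided, with 6 of the 14 tested higher and 8 lower (all tested genes: 38.3% and 40.0%). Their median was -0.34 on the log2 scale. The largest changes were those of Atf6, the ER stress sensor that is cleaved to a transcription factor (-2.62 ± 0.06), Creb3l2, a related membrane-bound factor (-2.01 ± 0.20), and Atf5. Atf6 and Creb3l2 span 163 and 115 kb, and subtracting the length trend put them at -1.06 and -0.95.

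Upstream of ATF4, the genes of the eIF2alpha kinases moved little or in different directions. Of 18 genes for the kinases, eIF2, its exchange factor eIF2B and their regulators, 10 were higher, 6 lower and 2 not called (all tested genes: 38.3% higher, 40.0% lower). Their median was 0.12 on the log2 scale. The largest changes were those of the eIF2B subunit genes Eif2b1 (1.34 ± 0.04, SE, n = 3 each) and Eif2b4 (1.19 ± 0.04) and of Oma1, the mitochondrial protease that starts the signal to the kinase HRI (-1.32 ± 0.15). Among the kinases, which were chosen after their values were seen, Eif2ak1 (HRI) was higher at 0.52 ± 0.06 and Eif2ak3 (PERK) lower at -0.56 ± 0.12. Eif2ak2 (PKR) was at 0.07 ± 0.06 (limma adjusted p = 0.322, but 0.0217 with median centring and 0.0359 with quantile normalization) and Eif2ak4 (GCN2) at -0.07 ± 0.08 (limma adjusted p = 0.444). Subtracting the length trend put Eif2ak4, which spans 86.6 kb, at 0.65 and Eif2ak1, of 86.5 kb, at 1.23, and it ended the call of Eif2ak3 (-0.18, limma adjusted p = 0.133). Transcript levels do not measure kinase activity.

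Downstream are the amino acid supply genes of the ATF4 programme, whose counts stand against 38.3% of all tested genes higher and 40.0% lower. The 8 amino acid transporter genes tested had a median log2 fold change of 0.76, with 6 higher and 2 lower. Slc1a4 and Slc1a5, transporters of neutral amino acids, rose by 1.28 ± 0.08 and 0.94 ± 0.03 (SE, n = 3 each). Slc7a11, the cystine transporter subunit xCT, fell by 0.95 ± 0.14, a change between the quartiles of genes of 100 kb or more (-2.25 and -0.82). GENCODE gives it a span of 551 kb, and subtracting the length trend put it at 2.44. That value rests on this span, and a value at another span was not computed. The other lower transporter gene, Slc7a1, was named after its value was seen. It also turned, with -0.18 ± 0.03 before and 0.35 after subtraction of the length trend. Of 12 genes of amino acid and one-carbon synthesis, 7 were higher, 3 lower and 2 not called, with a median of 0.32. The mitochondrial folate enzyme genes Mthfd2 and Shmt2 rose by 1.16 ± 0.03 and 0.97 ± 0.02, and Mthfd1l, of 194 kb, fell by 1.61 ± 0.04, or was at 0.22 once the length trend was subtracted. Of 12 tRNA synthetase genes of this programme, 9 were higher, 2 lower and 1 not called, with a median of 0.32, and Aars1, Nars1 and Yars1 rose by 0.93 ± 0.02, 0.87 ± 0.03 and 0.61 ± 0.04.

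Of 11 other known ATF4 and CHOP targets tested, 7 were higher, 2 lower and 2 not called (all tested genes: 38.3% higher, 40.0% lower). Their median was 0.28 on the log2 scale. The angiogenic factor gene Vegfa rose by 1.31 ± 0.07 (SE, n = 3 each), the stress-induced chromatin protein gene Nupr1 by 1.27 ± 0.04 and Herpud1, which serves ER-associated degradation, by 1.24 ± 0.05. None of these reached the change of Sesn2 (1.87). The ER chaperone genes of the ATF6 and XBP1 branches, the other arms of the ER stress response, were divided. Of 15 tested, 5 were higher, 9 lower and 1 not called, beside the same shares of all tested genes, with a median of -0.16. Xbp1 itself fell by 1.87 ± 0.06, to 18.04 CPM with LP-184 against 66.3 CPM with DMSO, and Dnajc3, an inhibitor of PERK, fell by 0.78 ± 0.04. Dnajb9, an ER co-chaperone, rose by 1.36 ± 0.06.

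**Figure D3:**
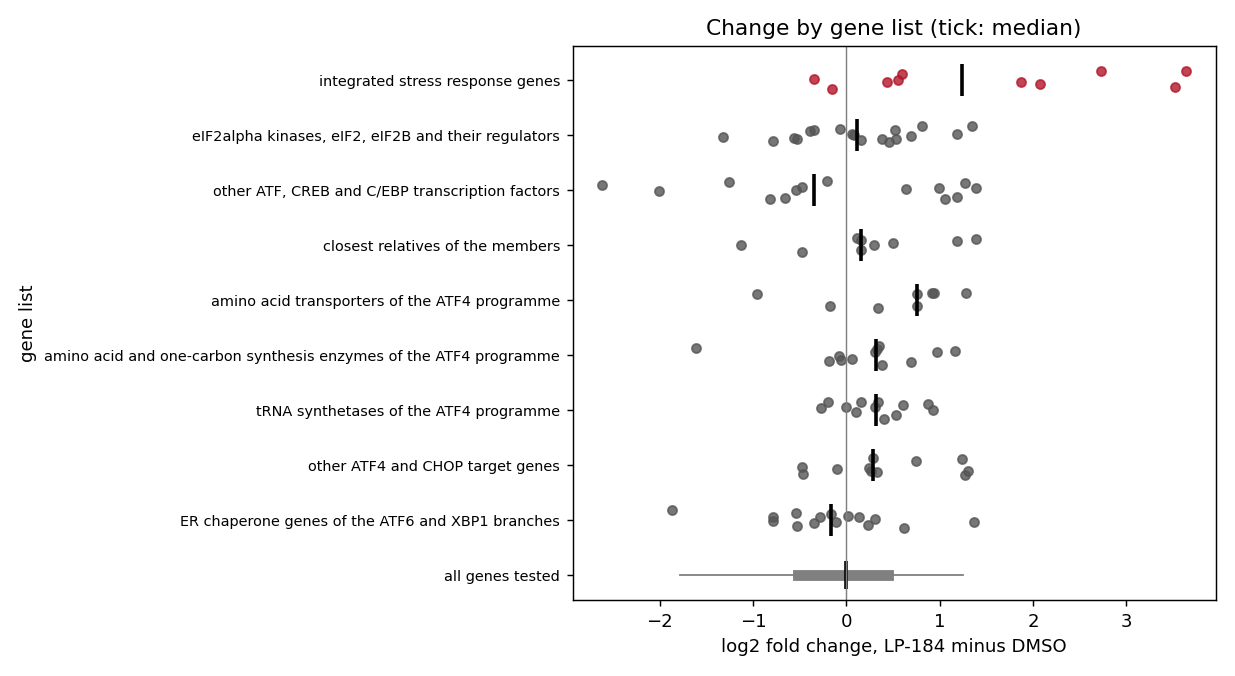
Log2 fold change (LP-184 minus DMSO) of every tested gene in the integrated stress response set (red) and in 8 related lists (grey points), with a tick at each median, above the median, quartiles and 5th to 95th percentile of all 11931 tested genes. The median lies at 1.24 for the integrated stress response genes, between -0.34 and 0.76 for the other lists and at -0.01 for all tested genes.

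Fold changes depended on gene length in these libraries, with a median of -1.42 on the log2 scale for the 1325 tested genes of 100 kb or more, and the members are short. 7 of the 10 span under 10 kb, where the median log2 fold change of 3306 tested genes was 0.23 with quartiles of -0.13 and 0.67. Atf4 (0.56) and Chac1 (0.43) lay between these quartiles, and Asns, of 18.1 kb, lay between those of the 2226 genes of 10 to 20 kb (-0.10 and 0.66). Ddit3, Ppp1r15a, Trib3 and Sesn2 lay above the upper quartile of their span class, and Ddit4 and Cebpb below the lower one. Atf3 is annotated over 47.7 kb in GENCODE and over 13.04 kb in RefSeq, and its change lay above the upper quartile of genes of 20 to 50 kb (0.40). Subtracting a curve of fold change on span left 3.37 for Ddit3, 3.71 for Atf3, 2.51 for Ppp1r15a, 1.78 for Trib3 and 1.65 for Sesn2. It left 0.37 for Asns, 0.36 for Atf4, 0.21 for Chac1, -0.34 for Cebpb and -0.54 for Ddit4, all past the threshold in that fit. The value for Atf3 rests on its GENCODE span of 47.7 kb, and a value at the RefSeq span was not computed.

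**Figure D4:**
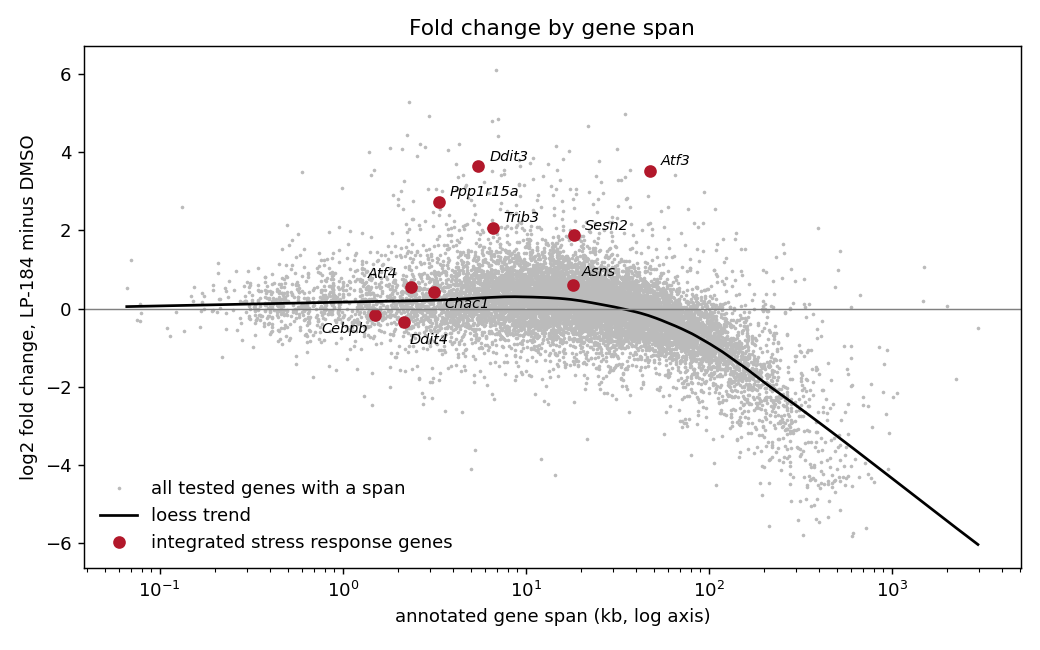
Log2 fold change (LP-184 minus DMSO) against annotated gene span on a log axis for all 11643 tested genes with a span (grey), with the loess trend as a line and the integrated stress response genes in red. The trend lies slightly above 0 for short genes and falls steeply beyond 50 kb, and Ddit3, Atf3, Ppp1r15a, Trib3 and Sesn2 lie well above it.

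Among 10776 other genes with a full name, the profile of Ddit3 over the 6 libraries was closest to that of Atf3, with a root mean square difference of 0.09 in log2 CPM after each gene's mean was subtracted. Cyp1a1, a cytochrome P450 gene, also met the rule, but it had 82 reads over the LP-184 libraries and 0 over the DMSO libraries, so its DMSO values are the fixed log2 value of a gene without reads and its place is no measure of likeness. Next among genes with reads in both groups came Apol9a, an apolipoprotein L gene with close paralogs, Nppb, the precursor of a natriuretic peptide, and Blnk, a signalling adaptor of B cells (0.12 to 0.16). The profile of Atf4 was closest to those of Rbm15b, Gps1, Uba1, Lztr1 and Gpkow, at 0.01 each, whose log2 fold changes lay between 0.54 and 0.56. With 2 groups of libraries this measure mostly follows the fold change. Genes of like fold change therefore come out close by the rule itself.

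Parts of a few members lie over other annotated genes. The exons of Ddit3 share 105 bases with a second gene record of the same name and 68 bases with Mars1 on the opposite strand. Those of Cebpb share 312 of 1504 bases with Tmem189 on the opposite strand, and those of Ppp1r15a share 12 bases with Tulp2. The sources used here do not give the strand setting of the counting, so reads from these stretches cannot be assigned to either gene. The effect of these stretches on the values was not tested.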

How the data were processed

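The authors deposited log2 CPM for 12656 genes, 1 column per library. Control columns 1 to 3 were matched by number to DMSO replicates. Among the tools in the submitters' processing notes are STAR 2.7, Subread 2.0, featureCounts, edgeR and fastp, and among the builds mm10, with no roles stated. The authors also deposited their own log2 fold changes with p-values, by a test that the sources used here do not name. Removing the constant offset of the log2 values gave whole reads for 100% of values (tolerance 1e-06 of a value), from which CPM was computed. The members and gene lists were chosen with earlier results of these data known.

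The filter required 3 libraries with a log2 CPM of at least 0, and the 11931 genes that passed were tested with limma 3.58.1 in R 4.3.3 (mean-variance trend, two-sided, Benjamini-Hochberg). The fit was also run on simulated data with far fewer changed genes than were called here. That run does not bear on scaling or false calls where so many genes change. Fold changes are LP-184 over DMSO; the prior count in the deposited values understates those of low genes. In related lists the 3 called genes with the largest change, or a lone called gene of opposite direction, were named; other genes were chosen after their values were seen. Spans and exon lengths are from GENCODE M21 (GRCm38), matched for 12331 genes, and promoter sequences from RefSeq (GRCm38.p6). The length trend was a loess curve (span 0.3) of fold change on log10 span. Same-numbered libraries of the 2 groups were not treated as pairs. Python 3.11.15 with pandas 2.3.3, numpy 2.4.6, scipy 1.17.1 and matplotlib 3.10.9 was used for summaries.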

Additional observations from a re-analysis of the deposited data

How the results depend on the processing

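Over 18 alternatives (other scalings, pseudocounts, filters and variance models, voom on the recovered reads, a stricter threshold, each library left out, the replicate number as a block, and removal of the length trend), 174 of 180 values of the 10 integrated stress response genes kept their direction and their side of the threshold, and the other 6 are lost calls of Cebpb. Counting calls of 2-fold or more in place of all calls gave 2466 of 11931 tested genes (8.08% higher and 12.6% lower). Beside these shares it gave 5 of the 10 integrated stress response genes and 3 of 18 in the eIF2alpha kinase and eIF2B list. It gave 7 of 14 other ATF, CREB and C/EBP factors, 3 of 9 close relatives and 1 of 8 transporters. The rest were 2 of 12 synthesis enzymes, 0 of 12 tRNA synthetases, 3 of 11 other targets and 2 of 15 ER chaperone genes. With the length trend removed, the direction turned for 13 of the 94 called genes of all lists, 0 of the 10 members among them. Those named in the text are Slc7a11 (2.44, at its GENCODE span), Slc7a1 (0.35), Mthfd1l (0.22), Ppp1r15b (-0.15), Trib1 (-0.19) and Chac2 (-0.0035). Eif2ak4, which was not called, turned in that setting (0.65), with median centring (0.0198), with quantile normalization (0.0232) and without DMSO replicate 2, over a range of -0.1128 to 0.0118 with each library left out. The replicate number as a block gave 9291 called genes against 9341 without it, and all 10 members were called in both. The correlation of deviations of same-numbered libraries was -0.0177 to -0.0065, under the 0.1 at which numbers would be taken as pairs. The causes were not tested. Among other named genes, the calls lost with the direction kept were those of Trib1 (6), Sesn3 (4) and Eif2ak3 (1). The call of Chac2 was also lost with the length trend removed (limma adjusted p = 0.964). Depth limits Sesn2 most, with 146 reads in the DMSO libraries.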
